A study of Mus musculus with 17 samples.

Results

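Transcripts of 6 chemokine genes, Cxcl1, Cxcl10, Cxcl12, Ccl2, Ccl7 and Ccl11, were examined in single Prrx1-lineage cells of mouse skin. The genes were chosen by name from a table of 8446 rows, and each had 1 row. The table covers 17 Tomato-positive cells, numbered 1 to 17, from the back skin of adult C57BL/6 mice of genotype Prrx1-CreERT;Tomato. All mice had received tamoxifen, 2 mg for a mouse of 30 g, daily for 3 days. CreERT is a Cre recombinase that works only with tamoxifen. It stood under Prrx1 control, so the Tomato reporter marks cells in which Prrx1 was active at that time, whatever they express later. The skin was digested at 37 °C with elastase for 20 min and collagenase for 1.5 h, and Tomato-positive cells were sorted and then picked singly. All cells form 1 group with no untreated or undigested cells, and no label ties a cell to an animal. They count as 1 sample here, and the values below describe levels and spreads over cells with no p-value.

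Chemokines are small secreted proteins that draw leukocytes along a gradient and are named by the spacing of their first cysteines (CC or CXC). Dermal fibroblasts make several of them at rest and many more when inflammatory signals activate NF-kappa-B or interferon pathways. Cxcl1 recruits neutrophils through Cxcr2, Ccl2 and Ccl7 recruit monocytes through Ccr2, and Ccl11 (eotaxin) recruits eosinophils through Ccr3. Cxcl10 is induced by interferon and attracts activated T cells through Cxcr3. Cxcl12 is a homeostatic chemokine of mesenchymal cells that acts on Cxcr4 and Ackr3.

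Values are deposited log-scale FPKM, read as log2 of FPKM plus 1. No source used here states the base or the added constant, so every FPKM figure rests on that reading. Every cell had the same sorted values, to within 0.0165 at values above 3, with 4369 rows at FPKM 1 or more and a highest value of 13.69. A member's value therefore reports its rank within the cell, a value of 13.69 means the highest gene of that cell, and how deeply each library was sequenced cannot be read from the table. The number of rows above a cell's lowest value, 6680 to 7575, was the remaining measure of library complexity. Its Pearson correlation over cells with the members ran from -0.0763 for Cxcl1 to 0.246 for Ccl11. The label fibroblast was checked against its markers: 9 of the 10 fibroblast markers had a row, and all 9 were detected, at FPKM 1 or more, in all 17 cells, beside 13% of all rows.

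The members lie on 3 chromosomes in GRCm38, and all are protein-coding. Ccl2 (ENSMUSG00000035385, chromosome 11, 82035571 to 82037453), Ccl7 (ENSMUSG00000035373, 82045712 to 82047525) and Ccl11 (ENSMUSG00000020676, 82057823 to 82062955) stand in that order on the plus strand within 27385 bases. Cxcl1 (ENSMUSG00000029380, 90891241 to 90893115, plus strand) and Cxcl10 (ENSMUSG00000034855, 92346638 to 92348889, minus strand) lie on chromosome 5. Cxcl12 (ENSMUSG00000061353) lies on chromosome 6 from 117168535 to 117181367 on the plus strand.

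Promoters of 3 of the 6 members, Cxcl1, Cxcl10 and Cxcl12, matched the RefSeq table (GRCm38.p6), and they are shown for that reason only. Each runs 5′ to 3′ on the gene's own strand from 250 bases before the start site to 50 after it: chr5:90890995-90891294 for Cxcl1, chr5:92348840-92349139 for Cxcl10 and chr6:117168285-117168584 for Cxcl12. Capitals mark the matches described after the sequences.
Cxcl1: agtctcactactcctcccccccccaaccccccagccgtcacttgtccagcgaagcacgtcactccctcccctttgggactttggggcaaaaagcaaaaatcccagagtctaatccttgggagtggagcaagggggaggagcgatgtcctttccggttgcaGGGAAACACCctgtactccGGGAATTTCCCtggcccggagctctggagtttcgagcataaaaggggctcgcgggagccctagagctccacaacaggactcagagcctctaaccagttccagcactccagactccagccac
Cxcl10: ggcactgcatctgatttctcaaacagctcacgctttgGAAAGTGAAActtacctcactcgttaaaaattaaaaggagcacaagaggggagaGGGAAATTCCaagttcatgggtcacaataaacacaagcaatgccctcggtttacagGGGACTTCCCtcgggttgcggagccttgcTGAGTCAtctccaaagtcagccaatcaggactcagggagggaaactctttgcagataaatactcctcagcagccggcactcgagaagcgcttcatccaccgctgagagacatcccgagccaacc
Cxcl12: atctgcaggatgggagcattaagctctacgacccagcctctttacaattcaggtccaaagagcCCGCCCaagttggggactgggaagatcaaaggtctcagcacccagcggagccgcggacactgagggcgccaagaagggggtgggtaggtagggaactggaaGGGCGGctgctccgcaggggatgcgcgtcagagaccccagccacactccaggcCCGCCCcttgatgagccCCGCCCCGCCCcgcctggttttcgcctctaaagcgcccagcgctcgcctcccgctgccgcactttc
Both strands were searched for 8 kinds of motif. The kappa-B motif of NF-kappa-B was spelled GGGA, any 4 bases, CC, and in a stricter form GGGA, any 2 bases, TTCC. The others were the AP-1 motif TGANTCA, the interferon element spelled GAAA, any 2 bases, GAAA, the GC box GGGCGG, the TATA box TATAAA, the CCAAT box CCAAT, the C/EBP motif TTGCNNAA and the GAS motif TTCNNNGAA. Narrower spellings of the kappa-B, interferon and C/EBP motifs were also searched and lie within these. The Cxcl1 window holds a strict kappa-B match from position -71 relative to the start site, overlapping another on the opposite strand from -70, and a looser match from -90. The Cxcl10 window holds a strict kappa-B match from -159, a looser one from -103, an AP-1 match from -74, an interferon element from -213 and a CCAAT box from -54, which is not in capitals. The Cxcl12 window holds none of these and 5 GC boxes, of which those from -16 and -11 overlap. None of the 3 windows holds the TATA, C/EBP or GAS motif. Of all 32851 promoters in the table, 1.47% hold the strict kappa-B motif, 20.7% the looser one, 7.81% the AP-1 motif, 3.44% the interferon element, 35.7% the GC box, 13.6% the TATA box, 37.4% the CCAAT box, 10.8% the C/EBP motif and 8.30% the GAS motif. These matches are letters in a window and do not show that a factor binds there.

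Cxcl1 was the highest member. It ran from 6.90 in cell 8 through a median of 11.96 to 13.69, the table's highest value, which it held in cells 6, 7 and 17 (mean 11.83, SD 1.81, n = 17 cells). It was detected in all 17 cells and stood at FPKM 10 or more in all of them. In 15 cells it was among the 100 highest rows and in 8 among the 10 highest. It was the highest of the 6 chemokines in 11 cells.

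The monocyte chemokines Ccl7 and Ccl2 followed, with a wider spread. Ccl7 ran from 4.02 in cell 4 through a median of 10.96 to 13.69 in cell 5, where it was the highest gene of the cell (mean 10.24, SD 2.60, n = 17 cells). Ccl2 ran from 3.22 in cell 4 through a median of 10.36 to 13.26 in cell 10 (mean 9.90, SD 3.01, n = 17 cells). Both were detected in all 17 cells, and each was among the 100 highest rows in 10 cells. Within a cell either could lead: Ccl7 was above Ccl2 in 9 of 17 cells, and their mean difference, 0.34, was small against its SD over cells, 1.94.

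Ccl11 was lower and uneven. It ran from 1.58 in cell 7 through a median of 7.86 to 10.21 in cell 8 (mean 7.07, SD 2.50, n = 17 cells), and it was detected in all cells. Cells 4, 7 and 15 stood apart at 2.74, 1.58 and 2.94. Cell 7 thus held the highest rank of Cxcl1 and the lowest value of Ccl11, and cell 8 the lowest value of Cxcl1 and the highest of Ccl11.

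The homeostatic and the interferon-induced CXC chemokine were the lowest of the 6. Cxcl12 ran from 0.88 in cell 9 through a median of 5.39 to 10.79 in cell 13 (mean 5.66, SD 2.41, n = 17 cells) and was detected in 16 cells (94.1%, exact 95% interval 71.3% to 99.9%). Cxcl10 ran from 0.00 in cells 4 and 5 through a median of 4.23 to 10.98 in cell 7 (mean 4.78, SD 3.67, n = 17 cells) and was detected in 13 cells (76.5%, exact 95% interval 50.1% to 93.2%). Its SD was larger than that of 99.7% of the 3956 genes detected in at least 9 cells, whose median SD was 2.16. Cells 6, 7, 11, 15 and 17 held Cxcl10 at 8.72, 10.98, 9.77, 8.52 and 10.02, while every other cell was at 6.32 or less. The intervals cover counting error over cells only.

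**Figure D1:**
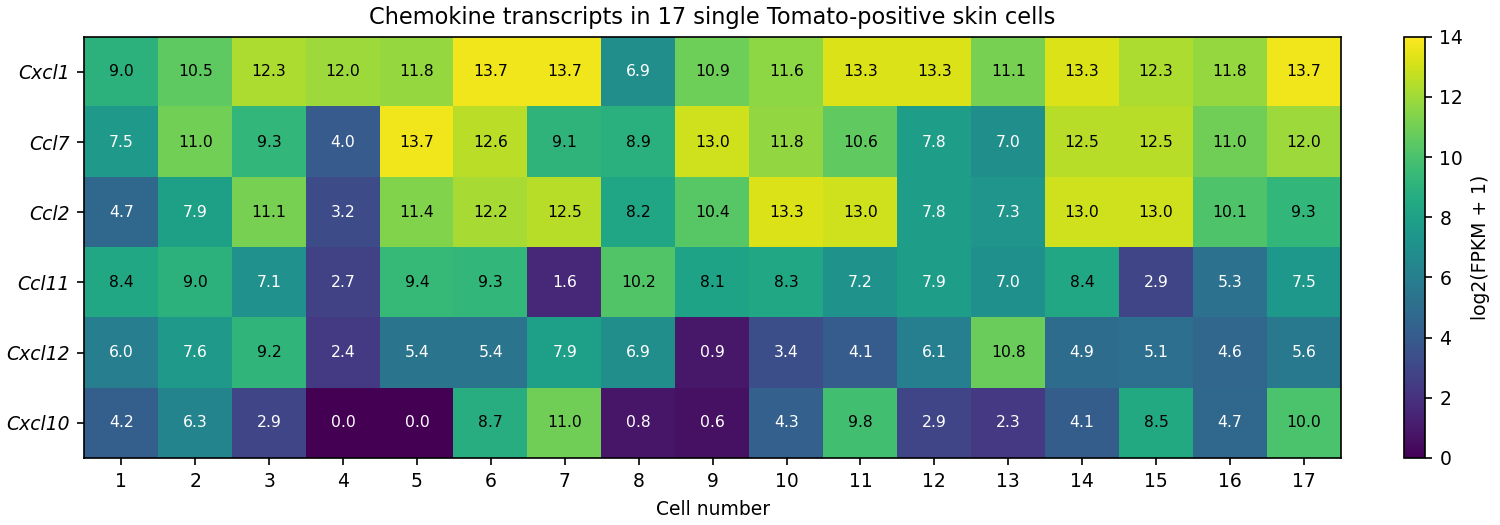
Level of each chemokine (rows) in each of the 17 cells (columns), as log2 of FPKM plus 1, with the value printed in each field. Cxcl1 is high in nearly every cell, cell 4 is low for all members but Cxcl1 (11.96), and Cxcl10 is above 8 in cells 6, 7, 11, 15 and 17.

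Detection in all 17 cells, found for 4 of the 6 members, was seen in 13% of all rows. At FPKM 10 or more in all cells were 2 members, Cxcl1 and Ccl7, beside 5.65% of all rows. By mean level Cxcl1 was 7th, Ccl7 50th, Ccl2 74th, Ccl11 487th, Cxcl12 957th and Cxcl10 1353rd of the 8446 rows. The 6 genes together made up 0.190% (cell 1) to 4.20% (cell 6) of a cell's summed FPKM, with a median of 1.95%. Cxcl1 alone reached 2.23% of the sum in the cells where it led the table.

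FPKM divides by gene length, whereas libraries made from the 3′ end of transcripts, as here, do not gain reads with length. The order of levels was therefore also taken after multiplying each FPKM value by the exonic length in kb. Cxcl1 stayed highest on that scale (mean 12.73), above Ccl2 (10.08) and Ccl7 (9.92). Cxcl12, with 8176 exonic bases the longest, moved above Ccl11, with means of 8.59 and 7.18, and Cxcl10 stayed lowest at 5.71. Neighbours in the order lay closer than their spread on the per-length scale: Cxcl1 over Ccl7 by 1.59 (SD of the difference 2.78), Ccl11 over Cxcl12 by 1.41 (SD 3.40) and Cxcl12 over Cxcl10 by 0.88 (SD 4.11), with the first gene higher in 11, 13 and 10 cells. The gap from Ccl2 to Ccl11, 2.83, was also within its SD of 3.89. Cxcl1 was above Cxcl10 in all 17 cells and above Ccl11 and Cxcl12 in 16 each.

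**Figure D2:**
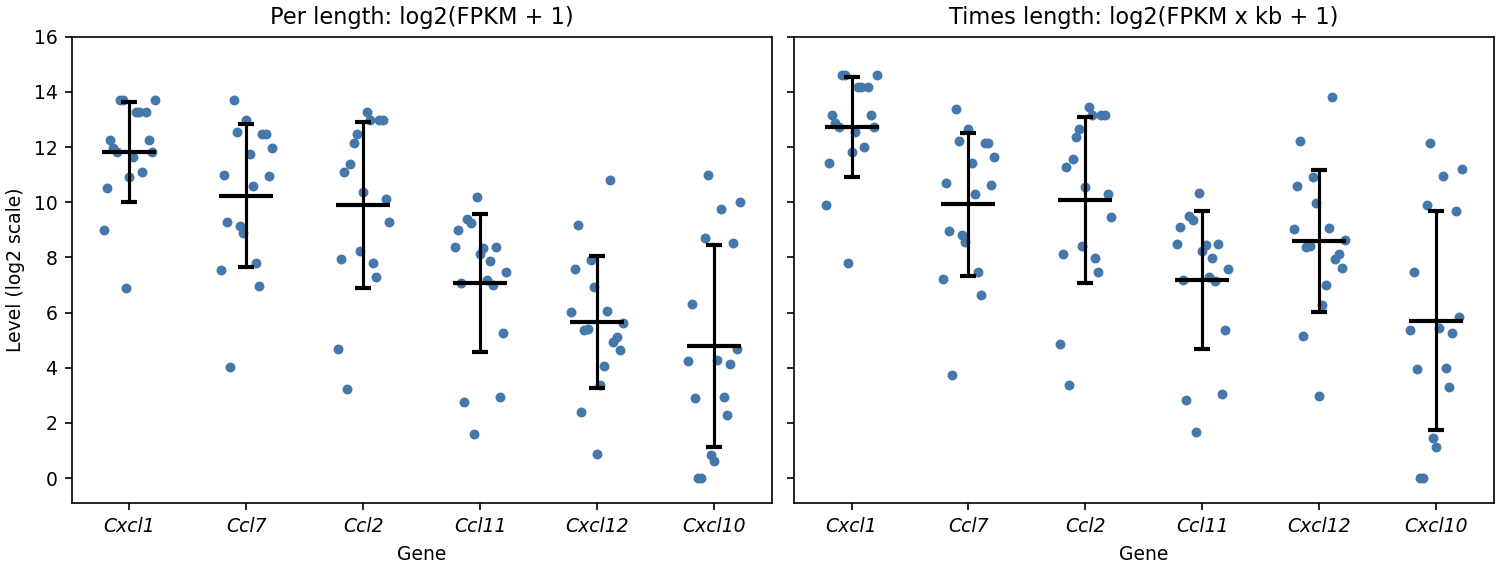
Level of each chemokine in single cells (points), with the mean and SD over 17 cells (bars), per length as log2 of FPKM plus 1 (left) and after multiplying FPKM by exonic length in kb (right). Cxcl1 is highest on both scales, and Cxcl12 lies below Ccl11 on the left (means 5.66 and 7.07) and above it on the right (8.59 and 7.18).

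Over all 17 cells the neighbouring genes Ccl2 and Ccl7 had the highest correlation of the 15 pairs, with a Pearson r of 0.772 (Spearman rho 0.637). Without cells 1 to 5 Cxcl1 with Cxcl10 was higher, at 0.701, against 0.659 for Ccl2 with Ccl7. All 17 cells share the normalisation, and which share an animal is not known. In cell 4 both were lowest, at 3.22 and 4.02, and cells 6, 10, 14 and 15 held both between 11.75 and 13.26. Without cells 1 and 4, the farthest from the median of Ccl2, r was 0.563, and leaving out any 1 cell gave 0.649 to 0.821. Among 3849 genes detected in at least 9 cells, Ccl7 was the gene most like Ccl2 and Ccl2 the gene most like Ccl7. The longest exact run shared by their GENCODE M21 transcripts was 23 bases. No source used here says how reads matching several places were counted, and the part of shared reads was not tested beyond that run.

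The third gene of the cluster, Ccl11, had r of 0.0134 with Ccl2 and 0.348 with Ccl7. Both values rested on cell 4, without which they were -0.329 and 0.103. Without cell 15 the r of Ccl11 with Ccl7 was 0.502. Cxcl1 and Cxcl10 formed the other pair at 0.5 or more (r = 0.539, rho 0.560). Cells 6, 7 and 17, where Cxcl1 led the table, had Cxcl10 at 8.72, 10.98 and 10.02, and cell 8, lowest in Cxcl1, had Cxcl10 at 0.82. Without cells 1 and 8, the farthest from the median of Cxcl1, r was 0.600, above the 0.563 of Ccl2 and Ccl7 without their far cells, and leaving out any 1 cell gave 0.488 to 0.583. Ccl2 also went with Cxcl1 (r = 0.471) and Cxcl10 (r = 0.466). Leaving out any 1 cell gave 0.355 to 0.586 for Ccl2 with Cxcl1 and 0.355 to 0.544 with Cxcl10. Ccl11, in contrast, had r of -0.380 with Cxcl1 and -0.312 with Cxcl10. The correlation of Cxcl1 and Ccl11 was -0.226 without cell 8 and -0.161 without cells 1 and 8. That of Cxcl10 and Ccl11 was -0.0883 without cell 7 and -0.548 without cell 4.

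Cxcl12 went with none of the others over all cells, with r from -0.268 to 0.133. Its relation to Ccl7 rested on cell 4, which was low in both (2.38 for Cxcl12 and 4.02 for Ccl7): without that cell r was -0.658. Cell 13 had the highest Cxcl12, 10.79, with Ccl7 at 6.97, and cell 9 had the lowest Cxcl12, 0.88, with Ccl7 at 12.98. Without cells 1 to 5 r was -0.773, in cells 6 to 14 alone it was -0.815, and Spearman rho over all cells was -0.394. Without cells 9 and 13, with cell 4 kept, r was 0.0498, so the value depends on which cells are kept. The median r of the 15 pairs was 0.133, beside a median of 0.000359 over all pairs of the 3956 genes, and 2 of the 15 pairs were at 0.5 or more beside 2.50% of all gene pairs.

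**Figure D3:**
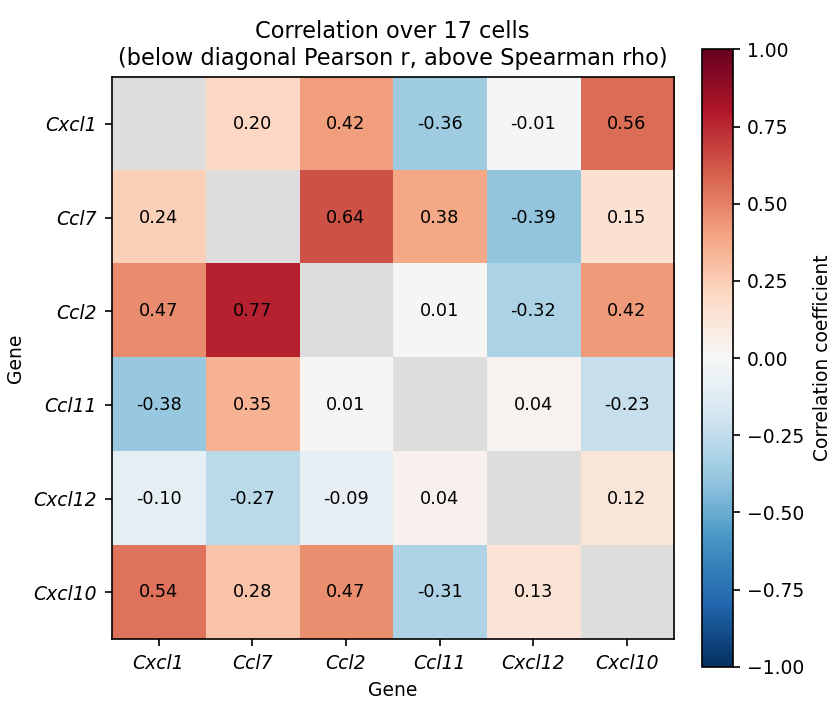
Correlation over 17 cells between the 6 chemokines, with Pearson r below the diagonal and Spearman rho above it, on a colour scale from -1 to 1. Ccl2 with Ccl7 (r = 0.772) and Cxcl1 with Cxcl10 (r = 0.539) stand out, and Ccl11 is negative with Cxcl1 and Cxcl10.

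Low values had been found to be alike within cells 1 to 5, 6 to 14 and 15 to 17, sets made from the data and not groups of the study. With the means of these sets subtracted the Ccl2 and Ccl7 correlation was 0.775 and that of Cxcl1 and Cxcl10 was 0.479. That of Ccl7 and Ccl11 was then 0.503, the other pair at 0.5 or more. In cells 6 to 14 alone Ccl2 with Ccl7 had 0.722 and Cxcl1 with Cxcl10 had 0.692. There 4 of the 15 pairs were at 0.5 or more and 2 at -0.5 or less. The 2 were Cxcl10 with Ccl11 (-0.592) and Cxcl12 with Ccl7 (-0.815). Cells 1 to 5 had medians of 7.95 for Ccl2 and 2.91 for Cxcl10, cells 6 to 14 of 12.17 and 4.15, and cells 15 to 17 of 10.12 and 8.52, and the ranges overlapped.

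Each chemokine was set against every gene detected in at least 9 cells, apart from ribosomal protein genes and gene models, and the 3 with the highest Pearson r are named. The named genes are the extremes of a search over 3849 genes, and for each member 1.77% to 2.50% of the 3955 other genes at that detection had r of 0.5 or more. The genes most like Cxcl1 were Has1 (r = 0.831), a hyaluronan synthase, Tnfaip6 (r = 0.824), a secreted hyaluronan-binding protein induced by inflammatory cytokines, and Metrnl (r = 0.812), a secreted factor. All 3 were lowest in cell 8, as Cxcl1 was, and Has1 and Tnfaip6 were highest in cell 6, at 11.30 and 12.98. For Metrnl the Spearman rho was only 0.488.

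The gene most like Cxcl10 was Cxcl2, another neutrophil chemokine that lies outside the 6 (r = 0.804, rho 0.831). Cxcl2 ran from 0.00 in cells 4 and 5 through a median of 3.75 to 13.26 in cell 17, and leaving out any 1 cell left r at 0.768 or more. Cells 14 and 15 departed from the pattern, with Cxcl2 at 10.47 and 3.75 and Cxcl10 at 4.15 and 8.52. Transcripts of Cxcl2 and Cxcl3 share an exact run of 157 bases, so reads may be divided between those genes. The next were Rsrc2 (r = 0.766) and Gfpt2 (r = 0.756), an enzyme of the hexosamine pathway. The genes most like Cxcl12 were Sparcl1 (r = 0.801), a secreted matrix-associated protein highest in cell 13 like Cxcl12, then Tomm70a (r = 0.731) and Trim28 (r = 0.681). After Ccl7, Ccl2 was most like Ubxn4 (r = 0.722) and Zwint (r = 0.708). After Ccl2, Ccl7 was most like Bhlhe40 (r = 0.716), a transcriptional repressor, and Mea1 (r = 0.713). Ccl11 had the weakest partners, Cyth3 (r = 0.720), Iah1 (r = 0.672) and Srsf5 (r = 0.667), all lowest in cell 15. Their Spearman rho with Ccl11 was lower, at 0.575, 0.460 and 0.490.

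**Figure D4:**
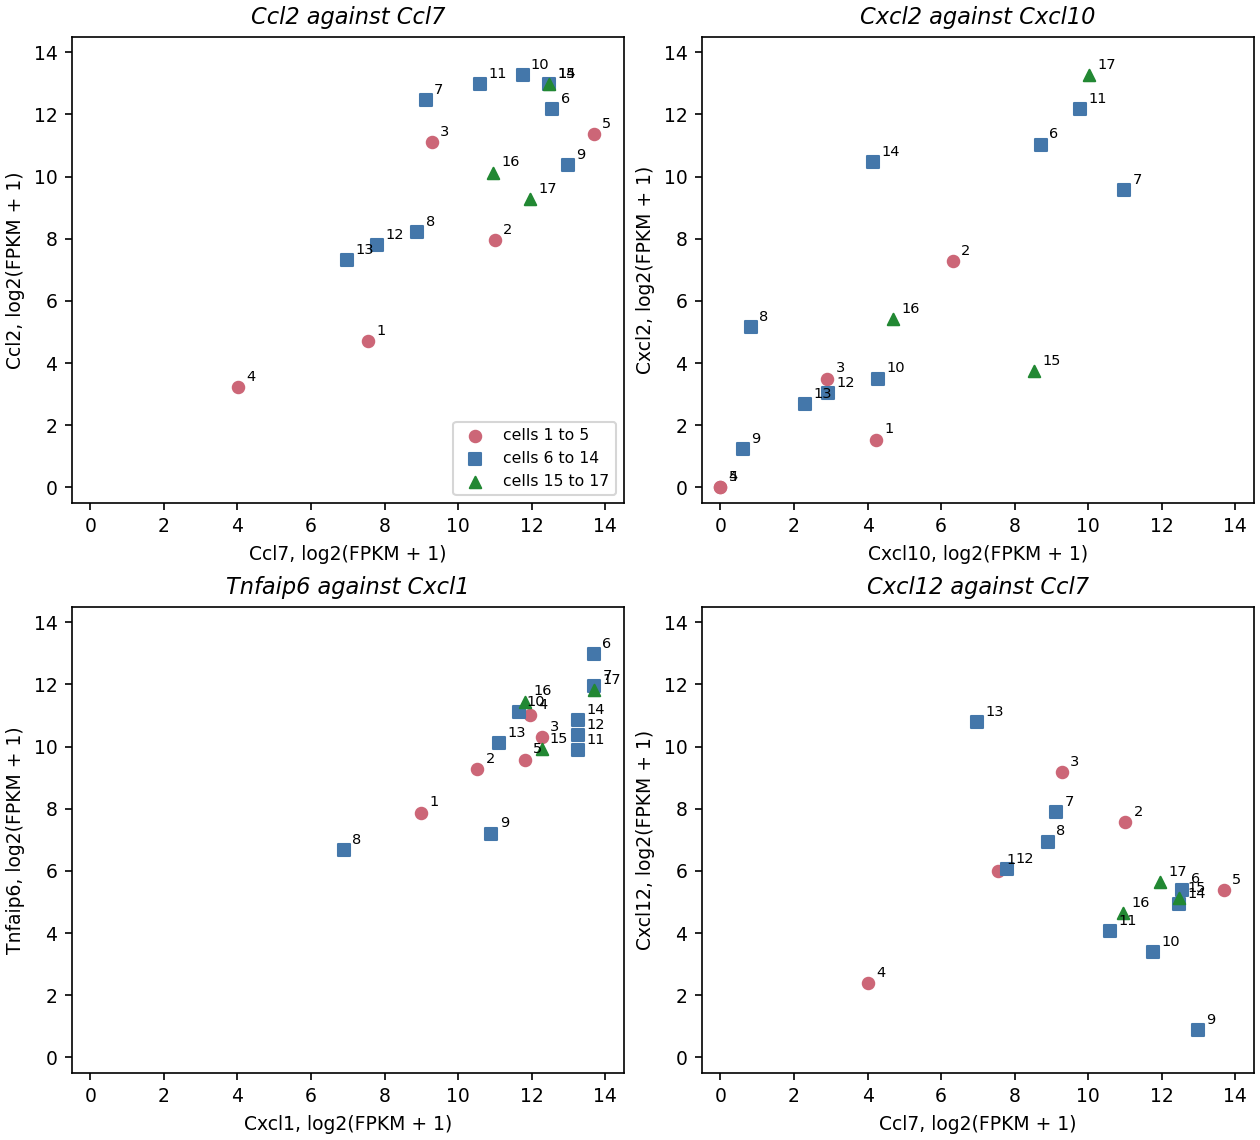
Single cells, numbered, by the level of 1 gene on each axis as log2 of FPKM plus 1; marker shapes give cells 1 to 5, 6 to 14 and 15 to 17, and some numbers overlap where cells have nearly equal values (4 with 5, 14 with 15). Ccl2 and Ccl7, Cxcl2 and Cxcl10, and Tnfaip6 and Cxcl1 lie along rising lines (r = 0.772, 0.804 and 0.824), whereas Cxcl12 against Ccl7 shows cell 4 apart from the other cells.

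Few other chemokine genes had a row. Of 12 other CXC ligands 5 had one and none was detected in all cells: Cxcl2 was detected in 15 cells, Cxcl13 in 14 (mean 3.71), and Cxcl16 and Cxcl14 in 12 each (means 3.86 and 2.71). Cxcl14 went with Cxcl12 (r = 0.625), and both were highest in cell 13 (7.65 and 10.79) and lowest in cell 9 (0.00 and 0.88). Of 20 other CC, CX3C and XC ligands 4 had a row. Ccl8 was detected in 16 cells, from 0.66 in cell 15 through a median of 6.81 to 10.53 in cell 3. Ccl19 was detected in 13 cells (mean 4.19), and Ccl25 and Ccl27a in 1 each.

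Of 17 chemokine receptors 3 had a row, and all 3 are atypical receptors, which bind chemokines without classical G protein signalling. Ackr3, which takes up Cxcl12, was detected in all 17 cells, from 2.35 in cell 3 through a median of 8.20 to 10.07 in cell 6 (mean 7.61, SD 2.27). Ackr1, which binds Cxcl1, Ccl2, Ccl7 and Ccl11, was detected in 16 cells, from 0.00 in cell 4 through a median of 6.48 to 8.34 in cell 2. Ackr3 had little relation to its ligand Cxcl12 (r = -0.128) and varied with Ccl7 (r = 0.638) and Ccl2 (r = 0.580), whereas Ackr1 varied with Cxcl12 (r = 0.615). Cell 4 was low in Ackr3 (2.455), Ccl7 (4.02), Ccl2 (3.22) and Cxcl12 (2.38), and Ackr1 was at 0.00 there. These r values were not taken without cell 4. Ackr2 was detected in 7 cells. Of the proteases that trim chemokines and the heparan sulfate carriers that hold them, 9 of 16 had a row. In all cells 5 were detected, beside 13% of all rows, led by Mmp2 (mean 8.22, SD 0.80), Mmp14 (mean 6.81), Sdc2 (mean 6.40) and Sdc4 (mean 5.21).

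Of 13 NF-kappa-B pathway genes with a row, a median of 69.2% was detected per cell, beside 51.7% of all rows, and 2 were detected in all cells, a share near that of all rows (13%). These were Nfkbia, the feedback inhibitor of NF-kappa-B (mean 9.33, SD 1.09), and Nfkb1 (mean 5.35). Nfkbiz and Tnfaip3 were detected in 16 cells each. Of 10 measured inflammatory cytokines and inducible genes, Tnfaip6 (mean 10.14), Csf1 (mean 6.85), Il6 (mean 6.12, SD 3.10) and Vcam1 (mean 5.48) were detected in all cells, beside 13% of all rows. The 18 immediate-early genes, a class that enzymatic dissociation can switch on, all had a row. In all cells 11 of them were detected, beside 13% of all rows, with Fos the highest (mean 10.03), followed by Dusp1 (mean 8.05), Egr1 (mean 7.79) and Klf6 (mean 7.51). Interferon response genes were less fully detected, with a median of 6 of 20 per cell (30%, beside 51.7% over all rows). Only Ifi27 of that list was detected in all cells, followed by Irf1 and Bst2 in 13 cells each and Gbp2 in 12. Of 18 measured cytokine and Toll-like receptors, Ifngr1 (mean 5.48) and Il6st (mean 4.81) were detected in all cells, a share near that of all rows. Ifnar2 and Il1r1 were detected in 16 each. Among 8 factors that act on AU-rich transcripts, a class that includes many chemokine mRNAs, Zfp36 (mean 8.71) and Zfp36l1 (mean 6.89) were detected in all cells, beside 13% of all rows. Zfp36l2 was detected in 16 cells and Elavl1 in 13.

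Cxcl1 followed the inducible inflammatory genes over cells. Its r was 0.705 with the mean of 9 inflammatory cytokine and inducible genes, 0.625 with that of 12 NF-kappa-B genes and 0.617 with that of 18 immediate-early genes. Among single genes r was 0.728 with Nfkb1 and 0.701 with Nfkbia. Of 8 NF-kappa-B genes detected in at least 9 cells all 8 were above 0 and 4 at 0.5 or more. Of the 3955 other genes at that detection, 2.23% were at 0.5 or more with Cxcl1, with a median r of -0.00288. Cell 8, lowest in Cxcl1, weighed on the values with the lists: without it r was 0.548, 0.503 and 0.278. Without cells 1 and 8 r was 0.414 with the inflammatory list, 0.285 with the NF-kappa-B list and 0.321 with the immediate-early list, so the relations rest largely on those cells. Of the 17 immediate-early genes detected in at least 9 cells 14 were above 0 with Cxcl1 and 6 at 0.5 or more. Klf6 (0.694) and Ier3 (0.685) were the highest. Fos, the immediate-early gene with the highest mean level, had r = 0.122 with Cxcl1.

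Cxcl10 went with the NF-kappa-B list (r = 0.552) and with the mean of the other CXC ligands (r = 0.679), a list that contains Cxcl2. Of the 4 ligands detected in at least 9 cells only Cxcl2 was at 0.5 or more (r = 0.804), beside 2.40% of the 3955 other genes. Cxcl13, Cxcl16 and Cxcl14 had r of 0.0752, -0.186 and -0.106 with Cxcl10. The r of Cxcl10 with the 15 interferon response genes averaged was -0.294, and with Irf1 it was 0.0181. The prostaglandin synthase gene Ptgs2 (r = 0.753) and the pentraxin gene Ptx3 (r = 0.670) were its nearest genes in the inflammatory list. Single genes set against Cxcl1, Cxcl10 or the CC members within these lists were chosen after their values were seen.

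Ccl2 went in part with the lists of Cxcl1 and Cxcl10, with r of 0.445 with the inflammatory list and 0.431 with the NF-kappa-B list. All 8 NF-kappa-B genes detected in at least 9 cells were above 0 with Ccl2, with Nfkbia at 0.580. The median r of Ccl2 with the 3955 other genes at that detection was 0.00203. Ptgs2 and Ptx3 had r of 0.585 and 0.571 with Ccl2. Ccl2 ran against the fibroblast marker mean (r = -0.567). Of the 9 markers 3 were at -0.5 or less with Ccl2, beside 2.40% of the 3955 other genes detected in at least 9 cells. The lowest were Fbln2 (-0.722) and Col1a2 (-0.534). Only 1 marker, Mfap5, was above 0 (r = 0.229). Ccl7 ran against the interferon response mean (r = -0.528, and -0.397 without cell 4). It went with the mean of the 8 factors that act on AU-rich transcripts (r = 0.564). Singly, none of the 5 such factors detected in at least 9 cells reached 0.5 with Ccl7, with r from -0.163 to 0.309. Ccl7 and Ccl2 had r of 0.461 and 0.400 with the 10 fascia and adventitia markers, but the markers were divided. Pi16 was the highest single gene for both, with 0.632 for Ccl7 and 0.554 for Ccl2, and Ly6c1, the highest-expressed marker of the list (mean 11.89), was the lowest, with -0.535 and -0.512. The next most widely detected, Mfap5, Anxa3 and Fbn1, had r of 0.470, 0.453 and 0.266 with Ccl7 and of 0.229, 0.437 and 0.187 with Ccl2. Ccl11 had its highest list value with the fibroblast markers (r = 0.449, and 0.270 without cell 15). Cxcl12 reached 0.5 in size with none of the 12 lists. The 10 complement genes were led by Serping1, C3, C4b and C1s1, each detected in all cells, as 13% of all rows were. The complement list mean had r between -0.231 and 0.266 with the 6 chemokines. In all, 6 of 72 values were at 0.5 or more and 2 at -0.5 or less. Values over lists are averages of several genes and are not comparable with the share of single genes.

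**Figure D5:**
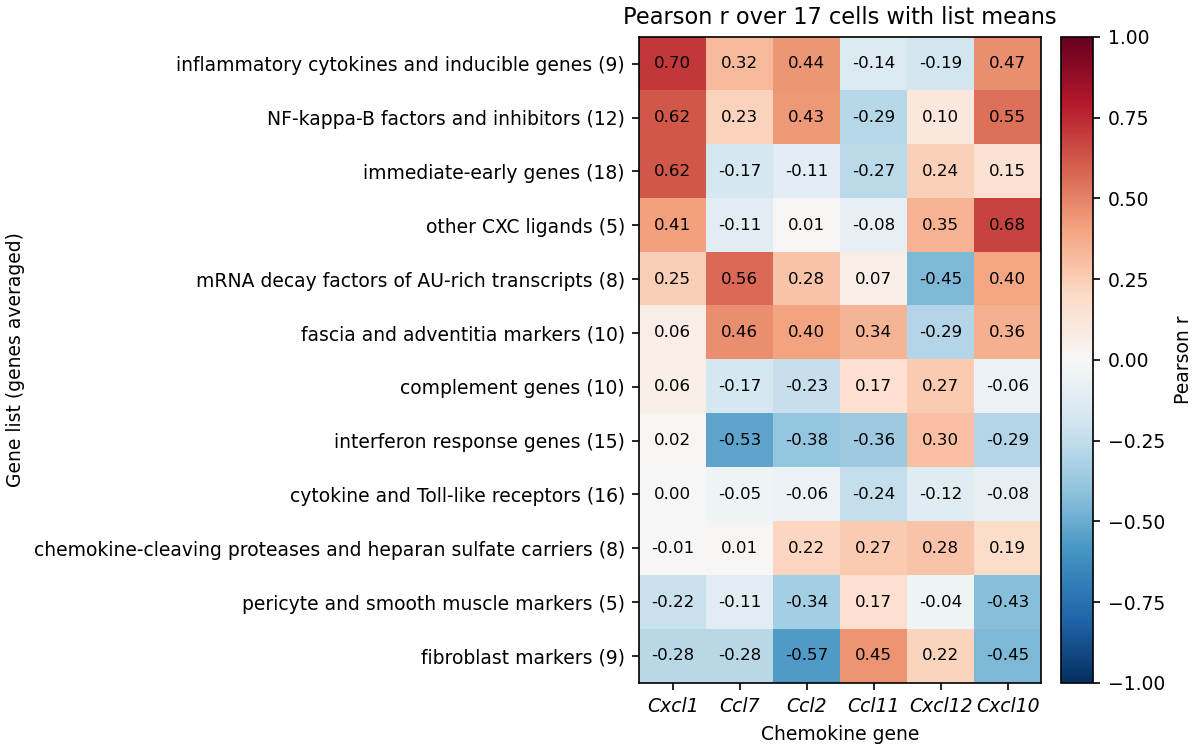
Pearson r over 17 cells between each chemokine (columns) and the mean level of each gene list (rows, with the number of genes averaged), on a colour scale from -1 to 1. Cxcl1 is highest with the inflammatory (0.705), NF-kappa-B (0.625) and immediate-early (0.617) lists. Cxcl10 is highest with the other CXC ligands (0.679), a list that contains Cxcl2 (single-gene r = 0.804).

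Markers of cells other than fibroblasts were sparse. Of 14 macrophage and monocyte markers 2 had a row, Csf1r, detected in 5 cells and highest in cell 1 at 4.69, and Cd14, detected in 3 and highest in cell 6 at 6.40. Their summed FPKM had a median of 0.236 and a highest value of 83.6. None of 7 neutrophil and none of 10 T cell and mast cell markers had a row, which says nothing about their expression. Of 9 endothelial markers 3 had a row, with a median summed FPKM of 15.4 and a highest value of 74.6, of 8 keratinocyte markers 2, with 0.253 and 48.4, and of 8 pericyte and smooth muscle markers 6, with 6.23 and 93.0. The named members Tek, Plvap and Esam were detected in 7, 5 and 3 cells, Krt10 and Krt79 in 5 and 1, Higd1b in 7, and Acta2, Myl9 and Rgs5 in 6 each. The 9 fibroblast markers summed to between 4346 and 29874 FPKM, led by Col3a1, Col1a2, Pcolce and Serpinf1. Whether RNA of other cells adds to the chemokine values was not tested.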

How the data were processed

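The authors deposited 1 table of log-scale FPKM values, with 17 columns that match the sample titles by number. Library kits were SMART-Seq v4 3′ DE and Nextera XT, per the labels' protocols. The submitters' processing notes name Cufflinks, TopHat2 and GRCm38. Their versions and settings, the handling of reads matching several places, the log transform and the step that made sorted values equal have no source here. Values as deposited were taken as log2 of FPKM plus 1, and equal sorted values keep ranks and remove differences in depth.

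Detection was FPKM 1 or more. Intervals are exact (Clopper-Pearson, 95%). Correlations are Pearson's r over cells with no p-value. Of the 8446 rows 8438 matched GENCODE M21 by identifier. List means used genes detected in at least 3 cells, in lists with at least 4 such genes, which 12 of 19 lists had. The text names the 6 members, for each the 3 most alike genes, and from each list the 4 most widely detected genes, and says where a gene was chosen after its values were seen. The members and lists were chosen with earlier results of these data known. The search for alike genes was tested on shuffled values with planted partners, which checks the search and not the genes named here. Software was matplotlib 3.10.9, scipy 1.17.1, pandas 2.3.3 and numpy 2.4.6 under Python 3.11.15.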

Additional observations from a re-analysis of the deposited data

How the results depend on the processing

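The number of members detected in all 17 cells, 4, was 3 at FPKM 5, 2 at FPKM 10, and 5 above the lowest value or after multiplication by length. Of 147 list genes with a row, 48 were detected in all cells at FPKM 1, 31 at FPKM 5 and 26 at FPKM 10. Of all rows 13% were at FPKM 1 in all cells and 5.65% at FPKM 10. Of the 3 members among the 100 highest means, 1, Cxcl1, stayed there after multiplication by length. The median r of the 15 pairs was 0.133, ranged from 0.0173 (without cell 4) to 0.222 (without cell 13) when 1 cell was left out, and lay between 0.0663 and 0.215 under the other 7 settings run. Relations with lists of at least 0.5 in size numbered 8, with 6 by Spearman and 7 to 12 when 1 cell was left out. None of the pairs or list relations of that size changed sign. Summing the rows of a symbol changed nothing, since each member has 1 row. The causes of these changes were not tested. Since the table keeps no depth, the smallest detectable level is unknown. No paired analysis was possible because the cells form 1 group.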

Other observations

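Cxcl12 and Ccl7, which parted once cell 4 was set aside, also differed in some fascia and adventitia markers. Cxcl12 had r of -0.555 with Mfap5, -0.517 with Anxa3, -0.522 with Cd55 and -0.502 with Pi16, the 4 most negative of the 10 markers, where Ccl7 had 0.470, 0.453, 0.292 and 0.632. Mfap5, Anxa3 and Cd55 were lowest in cell 13 (7.40, 3.84 and 1.75), the cell with the highest Cxcl12 (10.79) and with Ccl7 at 6.97. The r values with these markers were not taken without cell 13. The list was divided: Ly6c1, Sema3c, Gfpt2 and Fbn1 had r of 0.285, 0.233, 0.179 and 0.0210 with Cxcl12 and of -0.535, 0.411, -0.0316 and 0.266 with Ccl7, and the list mean had r of -0.293 with Cxcl12. With the immunoproteasome gene Psmb8 r was 0.556 for Cxcl12 and -0.393 for Ccl7. Ccl8 had r of 0.478 with Ccl11 and -0.431 with Cxcl10. The receptor gene Tnfrsf1a had r of -0.723 with Cxcl10 and -0.546 with Cxcl1. These genes were chosen after their values were seen, and the values describe 17 cells.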
